A study of Danio rerio with 6 samples.

Results

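The change of the transcriptome between 10 and 24 hpf was described in zebrafish embryos kept in a low dose of pentachlorophenol (PCP), a chlorinated phenol used as a wood preservative and known to uncouple oxidative phosphorylation. The comparison took the 24L library over the 10L library, which are 2 of the 6 libraries of the series, and covered 21217 of the 21228 entries of the deposited table after 11 entries that merge many clone-named transcripts had been left out. Embryos of the wild-type Tuebingen strain were exposed from about 1 hpf to 5 μg/l PCP in DMSO and collected whole at 10 hpf (10L) or at 24 hpf (24L). The same ages with DMSO vehicle alone, 10C and 24C, served as the background of normal development, and the groups of the higher dose, 200 μg/l, were not used here. Embryos of a group were pooled into 1 library, so there is no replicate check on any value, and what a test compares is a pair of libraries, not a pair of conditions.

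At 10 hpf a zebrafish embryo ends gastrulation: the body axis has been laid down, the organizer has done most of its work, and unsegmented mesoderm surrounds the tail bud. By 24 hpf the somites have formed, muscle twitches, the heart has started to beat, primitive blood is made, and the eye, the brain, the pigment cells and the hatching gland are differentiating. Genes of gastrulation and segmentation are therefore known to be high at the earlier age, and genes of differentiated tissues at the later age. The age labels were checked with markers of both kinds. All 7 markers of the younger embryo fell in 24L against 10L, and of 12 markers of the older embryo the 11 that were found in the table rose, as they did between 10C and 24C.

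Values per library are given as reads, which were recovered from the deposited normalized counts. The libraries held 54483684 reads in 10L, 50925208 in 24L, 50320856 in 10C and 47409208 in 24C, and 1 read was worth 0.885, 1.03, 1.05 and 1.07 normalized counts in that order. FC is the normalized count of 24L over that of 10L, and the range in parentheses after it is a 95% interval by the method of Clopper and Pearson. Counting error is all that this interval holds. "Rose" and "fell" are used of genes whose FC passed 2-fold at an unadjusted p under 0.05, by the exact binomial test, two-sided, of the reads in 10L and 24L. Values are relative, scaled by 1 factor per library, so in these whole embryos fewer cells of a type and less RNA per cell cannot be told apart.

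Between 10 and 24 hpf under the low dose, 5932 genes rose (28.0% of the genes tested) and 3424 fell (16.1%). Of these, 2734 rose (12.9%) and 475 fell (2.24%) by more than 8-fold. The genes that fell were the more abundant ones, with a median of 897 reads in 10L, against a median of 139 reads in 24L for those that rose. The genes that fell took 29.4% of all reads of 10L and 9.16% of those of 24L, and the genes that rose took 11.4% of the reads of 10L and 37.7% of those of 24L. No read was seen in 10L for 825 of the genes that rose, or in 24L for 120 of those that fell. In the controls 6180 genes rose (29.1%) and 3863 fell (18.2%). Of the genes that rose under the low dose, 84.6% also rose in the controls, and these were 81.2% of the control risers. Of those that fell, 76.6% also fell in the controls, and these were 67.9% of the control fallers. Opposite calls were rare, with 17 genes that rose under the low dose and fell in the controls and 19 that did the reverse.

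To choose genes for description, called genes that reached 200 reads in 10L or 24L were ordered by FC, with 3 reads put in place of 0, which can place a gene with 0 reads below a gene with 1 read. The order is therefore a way of choosing and no ranking of true folds. Among the 15 genes at its top was matn4, a matrilin of cartilage and fin matrix, with 3 reads in 10L and 8184 in 24L (FC 3180, 1088 to 15420), and 2 and 8653 reads in the controls. The melanin enzyme gene tyrp1b had 2 and 3912 reads (FC 2280, 631 to 18840), and myoz1b, of the muscle Z-disc, had 1 and 1547 reads (FC 1803, 323 to 71280). With so few reads at 10 hpf these folds are known only within wide limits, and abundant genes gave closer ones. The embryonic globin gene hbbe3 had 49 and 75128 reads (FC 1787, 1352 to 2416), and the fast myosin light chain mylz2 (RefSeq mylpfa) had 97 and 95670 (FC 1150, 942 to 1418). Among the 15 genes at the other end, the endoderm gene sox17 had 537 reads in 10L and 2 in 24L (FC 0.00434, 0.000525 to 0.0158). The anterior neural homeobox gene six7 had 4416 and 18 (FC 0.00475, 0.00281 to 0.00752), and chd (chordin), the BMP antagonist of the organizer, 13248 and 89 (FC 0.00783, 0.00629 to 0.00964). A fall of this depth was also seen for hsd3b1 (RefSeq hsd3b2), a gene of steroid synthesis, with 26506 and 308 reads (FC 0.0135, 0.0121 to 0.0152).

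Genes were next taken by tissue and pathway in 36 lists, and a member counted as measured when 10L and 24L averaged at least 10 reads. Over all 17136 genes measured, 5184 rose (30.3%) and 3214 fell (18.8%), and the median log2 FC was 0.06 in the low-dose embryos and 0.05 in the controls (1 added to the normalized counts, as in all medians below). Scaled to library totals, these medians were -0.06 and 0.11, so list medians moved by about that shift. A list is described by its counts and its median beside these values, with no test of the list. The list of somite clock and presomitic mesoderm had the lowest median, -2.56, and that of lens crystallins and fibres the highest, 6.21. The direction of the list medians was the same in the low-dose embryos and in the controls, apart from ear and lateral line, whose 2 medians lay close to 0 at 0.28 and -0.03, and from neural crest under library totals, at -0.09 and 0.25.

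**Figure D1:**
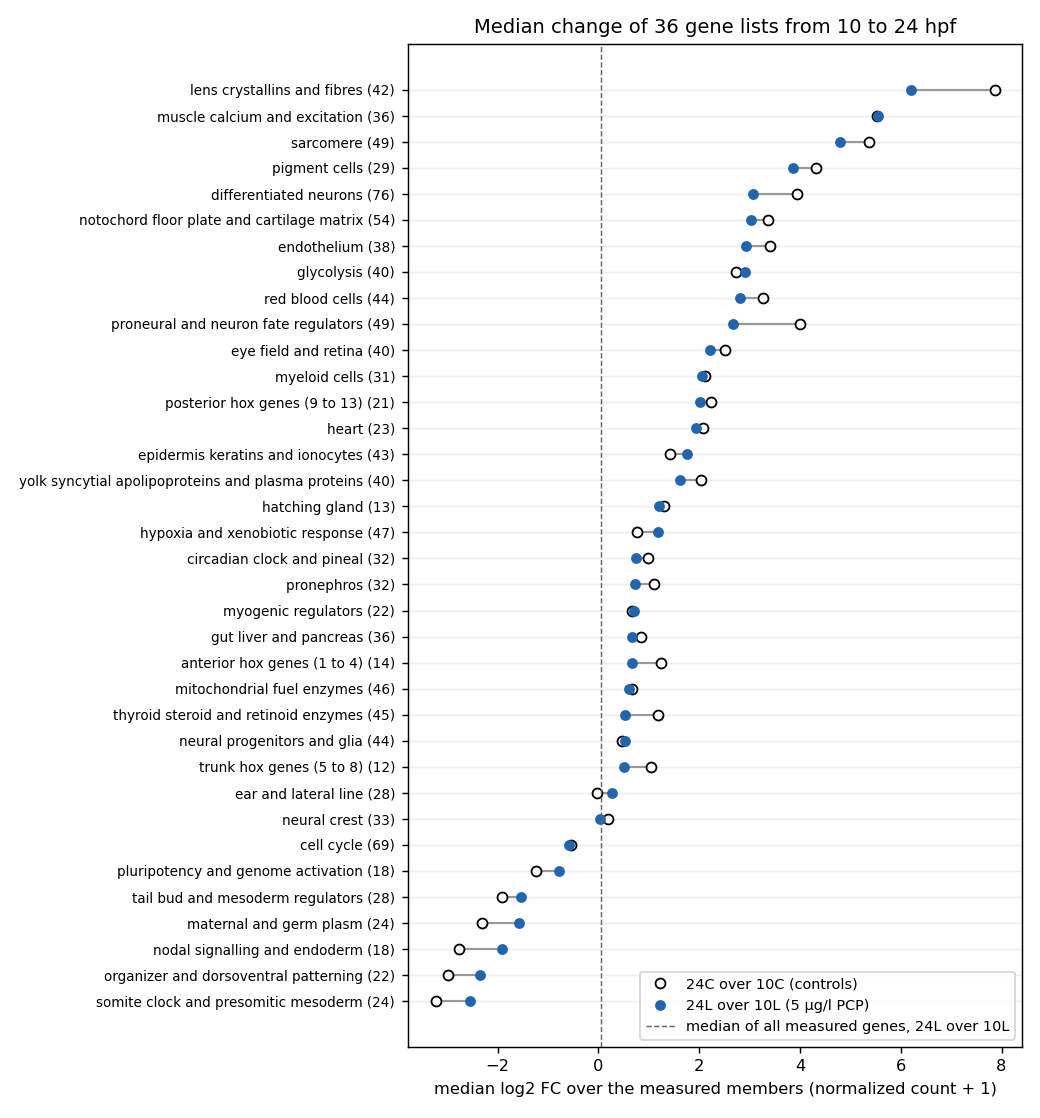
Median log2 FC from 10 to 24 hpf of 36 gene lists (measured members in parentheses), with 24L over 10L as filled points and 24C over 10C as open points, and the median of all measured genes, 0.06, as a dashed line. Lists of the early embryo lie at the bottom, down to -2.56 for the somite clock, where the control median was -3.23, and lens genes lie at the top at 6.21, with 7.86 in the controls.

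Segmentation genes fell. The somite clock is an oscillator of Hairy-related repressors and Delta/Notch signals in the presomitic mesoderm, whose cells are used up as somites form one after the other. Of the 24 genes measured in this list, 18 fell, none rose and 6 were not called, with a median log2 FC of -2.56 against -3.23 in the controls. The clock repressor her1 had 2108 reads in 10L and 92 in 24L (FC 0.0509, 0.0408 to 0.0627). In the controls her1 went from 1677 reads to 5, so the low-dose embryos started from a like level and ended higher. Its partner her7 had 1801 and 32 reads (FC 0.0207, 0.0141 to 0.0293), and 2092 and 10 in the controls. The T-box gene tbx16, needed for mesoderm cells to leave the tail bud, had 7213 and 160 reads (FC 0.0259, 0.022 to 0.0303), with 5050 and 26 in the controls. The bHLH gene msgn1, a regulator of presomitic fate, had 18800 and 623 reads (FC 0.0386, 0.0356 to 0.0418), with 19880 and 70 in the controls. Thus each of these genes was far lower at 24 hpf than at 10 hpf in both series, and in each 24L stood above 24C. The same held for tbx24 (RefSeq tbx6, the gene of the fused somites mutant), with 12863 and 462 reads (FC 0.0419, 0.0381 to 0.046) and 8308 and 63 in the controls, and for mespb, a gene of the forming somite boundary, with 320 and 22 reads (FC 0.0802, 0.0495 to 0.124) and 286 and 0 in the controls.

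Whether the change from 10 to 24 hpf differed between the low dose and the controls was asked with the ratio of the 2 folds, (24L/10L)/(24C/10C), which rests on 4 separate libraries. It is called higher or lower when its whole 95% interval, found by a normal approximation from 4 read counts with 0.5 read added to each, lies beyond 2-fold. Over all genes 354 ratios were higher (1.67%) and 287 lower (1.35%). Scaled to library totals in place of the deposited factors, 223 were higher and 453 lower, so the balance between the directions depends on the scaling. In the list of somite clock and presomitic mesoderm 8 of the 24 ratios were higher and none lower, and 6 were higher under library totals. By log2 FC alone, 14 of the 24 lay above the controls under both scalings, beside 8436 and 6330 of all 17136 genes. The summed normalized counts of the list fell from 96577 to 30384 under the low dose and from 100355 to 37631 in the controls, so the sum was not higher in 24L than in 24C. The ratio was 15.3 (6.46 to 36.3) for her1, 10.7 (8.35 to 13.7) for msgn1, 5.38 (4.13 to 7) for tbx24, 4.85 (3.21 to 7.33) for tbx16 and 4.11 (2.04 to 8.27) for her7. A ratio above 1 here means a shallower fall.

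**Figure D2:**
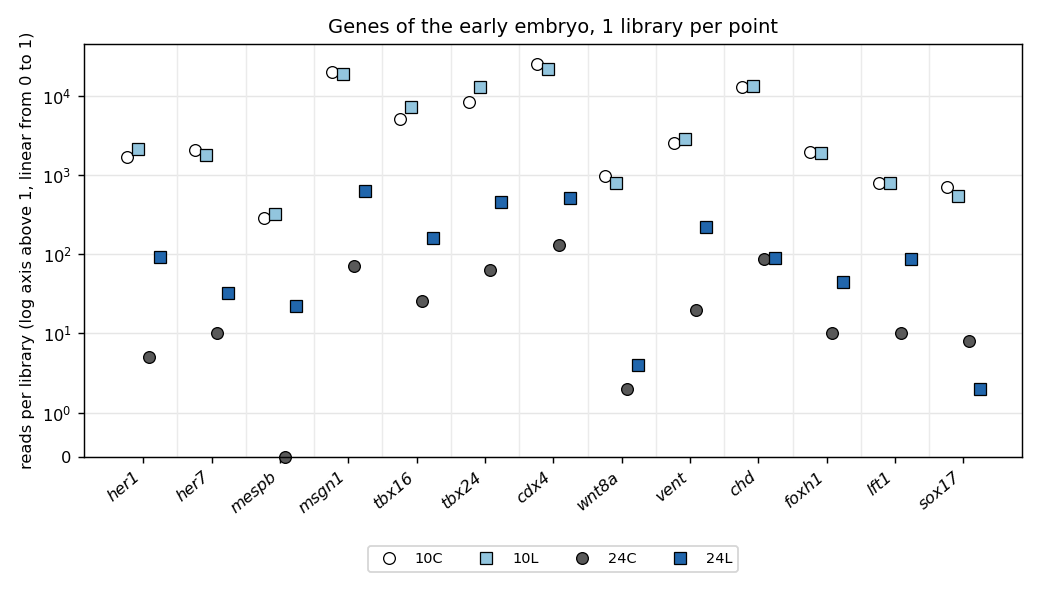
Reads in the 4 libraries (log axis above 1, linear from 0 to 1) for 13 genes of the early embryo, 10C and 24C as circles and 10L and 24L as squares. At 10 hpf the 2 libraries lie within 2-fold of each other in reads, and at 24 hpf 24L lies above 24C for most genes, as for msgn1 with 623 against 70 reads, but not for sox17 with 2 against 8.

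Genes of the tail bud and of the ventrolateral mesoderm fell as well. Of 28 measured members 18 fell and 1 rose, with a median log2 FC of -1.53 against -1.91 in the controls, and 2 ratios of folds were higher. The Wnt ligand gene wnt8a had 798 reads in 10L and 4 in 24L (FC 0.00584, 0.00159 to 0.015), and 979 and 2 in the controls. The separate entry wnt8-2, which is in no list but is among the 15 genes at the low end of FC, had 4678 and 58 reads (FC 0.0145, 0.011 to 0.0187), and its ratio of folds was 3.49 (2.2 to 5.53). Of the caudal homeobox genes, which give posterior identity, cdx1a had 9957 and 195 reads (FC 0.0228, 0.0197 to 0.0263) and cdx4 had 21949 and 506 (FC 0.0269, 0.0246 to 0.0293). The fall of cdx4 was shallower than in the controls, where it had 25531 and 132 reads, with a ratio of 5.08 (4.2 to 6.16), whereas the interval of the ratio of cdx1a, 1.69 (1.35 to 2.11), was not wholly beyond 2-fold. The member that rose was evx1, a homeobox gene also active in spinal interneurons, with 7 and 217 reads (FC 36.1, 17.2 to 91). The retinoic acid degrading enzyme gene cyp26a1 had 5385 and 1390 reads (FC 0.301, 0.284 to 0.319), and wnt3a, with 209 and 228 reads, was not called (FC 1.27, 1.05 to 1.54).

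Among the genes of the organizer and of dorsoventral patterning, where Chordin and its relatives oppose BMP signals, 17 of 22 measured members fell and none rose. The median log2 FC was -2.35 against -2.98 in the controls. The BMP-like ligand gene admp had 473 and 4 reads (FC 0.00986, 0.00268 to 0.0254). Among the ventral homeobox repressors, ved had 8088 and 313 reads (FC 0.0451, 0.0402 to 0.0505) and vent had 2831 and 218 (FC 0.0898, 0.0779 to 0.103). In the controls ved ended at 136 reads from 10327, and vent at 20 from 2541. Their ratios of folds were 3.35 (2.74 to 4.11) and 10.9 (6.93 to 17.3). Of the 22 members 7 had a higher ratio and 1 a lower one, with 6 and 1 under library totals. The fall of chd did not differ by this rule, since the controls went from 12958 reads to 88 and the ratio was 1.13 (0.842 to 1.52).

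Nodal signalling and early endoderm genes showed 15 falls and 1 rise among 18 measured members, with a median log2 FC of -1.91 against -2.77 in the controls. Nodal ligands induce mesendoderm, Lefty proteins inhibit them, and FoxH1 carries the signal in the nucleus. The transducer foxh1 had 1878 and 44 reads (FC 0.0273, 0.0198 to 0.0368), and its ratio of folds was 5.04 (2.57 to 9.91). The inhibitor lft1 had 794 and 87 reads (FC 0.128, 0.101 to 0.159), against 804 and 10 in the controls, with a ratio of 9.65 (5.05 to 18.4). The endoderm determinant sox32 had 387 and 16 reads (FC 0.0482, 0.0273 to 0.0793), against 746 and 0 in the controls. For its target sox17 the controls had 715 and 8 reads, and the interval of the ratio, 0.448 (0.109 to 1.84), includes 1. In this list 5 ratios were higher and none lower, under the deposited scaling and under library totals alike. The member that rose was apln, the ligand of the apelin receptor, with 222 and 1127 reads (FC 5.92, 5.12 to 6.87) and a like rise in the controls, 168 to 1014.

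Of 24 measured genes of oocytes, maternal stores and germ plasm, 18 fell and 1 rose (median log2 FC -1.59, in the controls -2.32). The egg envelope gene zp3b had 779 and 27 reads (FC 0.0404, 0.0265 to 0.0592) and zp3a 2415 and 184 (FC 0.0888, 0.076 to 0.103). The exception was mos, the kinase that holds the egg in meiosis, with 17 reads in 10L and 68 in 24L (FC 4.66, 2.71 to 8.46), whereas in the controls it had 32 and 14 reads. Its ratio of folds was 10.03 (4.46 to 22.6). Among 18 genes of pluripotency and genome activation 6 fell, 2 rose and 10 were not called, with a median of -0.79 against -1.23. The Oct4 relative pou5f1 (RefSeq pou5f3) had 2314 and 94 reads (FC 0.0474, 0.0381 to 0.0582) and the forkhead gene foxd5 had 2315 and 84 (FC 0.0423, 0.0336 to 0.0526). A rise was seen for myca, a Myc family gene active in growing tissues, with 306 and 2226 reads (FC 8.48, 7.52 to 9.59). The small rise of klf4a (RefSeq klf4), with 107 and 200 reads (FC 2.18, 1.72 to 2.78), was lost under library totals. In the controls klf4a had 95 and 74 reads and was not called, and its ratio of 2.73 (1.86 to 4.01) was not wholly beyond 2-fold.

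Muscle genes gave some of the largest rises. Myogenic factors of the MyoD family start the muscle program in the somites, and the fibres then fill with sarcomeres, the actin and myosin units of contraction, and with the calcium pumps and channels that drive them. Of 49 measured sarcomere genes 42 rose and 3 fell, with a median log2 FC of 4.79 against 5.38 in the controls, and of 36 genes of muscle calcium and excitation 31 rose and 2 fell, with medians of 5.55 and 5.54, in reversed order under library totals at 5.43 and 5.59. Although these last medians were close, 11 of the 36 members had a log2 FC above that of the controls, or 10 under library totals. Over all 17136 genes measured these counts were 8436 and 6330. The fast troponin gene tnnt3a had 36 reads in 10L and 36430 in 24L (FC 1180, 852 to 1685), against 33 and 62003 in the controls, and the light chain myl1 had 16 and 12749 (FC 929, 572 to 1626). The calcium pump atp2a1 had 58 and 32196 reads (FC 647, 500.5 to 852). These fast muscle transcripts were thus scarce at 10 hpf and abundant at 24 hpf in both series. Sarcomere genes that fell were myhb, with 285 and 28 reads (FC 0.114, 0.0748 to 0.169), mybpc1, with 433 and 88 (FC 0.237, 0.186 to 0.299), and the myosin chaperone unc45b, with 7616 and 2847 (FC 0.436, 0.417 to 0.455).

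The rise was smaller than in the controls, by the ratio of folds, for 5 sarcomere genes and 3 calcium and excitation genes, and larger for none of either list. The cytosolic calcium buffer pvalb2 had 40 and 18303 reads (FC 533, 392 to 747), against 12 and 40965 in the controls, with a ratio of 0.158 (0.0836 to 0.297). Here both ends differed, with more reads in 10L than in 10C and fewer in 24L than in 24C. This was also the case for mybpc2b, a myosin-binding protein of fast fibres, with 280 and 1216 reads (FC 5.06, 4.44 to 5.79), against 23 and 2369 in the controls, and a ratio of 0.0492 (0.0321 to 0.0753). Among 22 myogenic regulators 11 rose and 5 fell, with a median log2 FC of 0.71 against 0.66 in the controls, or 0.59 against 0.72 under library totals. The differentiation factor myog had 32 and 1096 reads (FC 39.9, 28.1 to 58.7), against 11 and 202 in the controls, with a ratio of 2.19 (1.1 to 4.36). The gene smyd1a, a methyltransferase of sarcomere assembly, had 0 and 967 reads, at least 376-fold higher against a floor of 3 reads. The earlier factor myf5 fell from 4869 to 306 reads (FC 0.0733, 0.0651 to 0.0822), much as in the controls with 3768 and 262.

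Of 23 measured heart genes 14 rose and 2 fell, with a median log2 FC of 1.94 against 2.07 in the controls. The cardiac light chain gene myl7 had 3 and 2025 reads (FC 787, 269 to 3819), against 0 and 2410 in the controls, and cmlc1, another cardiac light chain gene, had 0 and 1976, at least 768-fold higher. The ventricular myosin gene vmhc had 3 and 1491 reads (FC 579, 198 to 2813). Each of these 3 genes had 3 reads or fewer at 10 hpf in both series. The members that fell were the early cardiac regulator gata5, with 5657 and 1579 reads (FC 0.325, 0.307 to 0.344), and has2, the hyaluronan synthase of the heart cushions and of gastrulating mesoderm, with 937 and 124 (FC 0.154, 0.127 to 0.186).

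**Figure D3:**
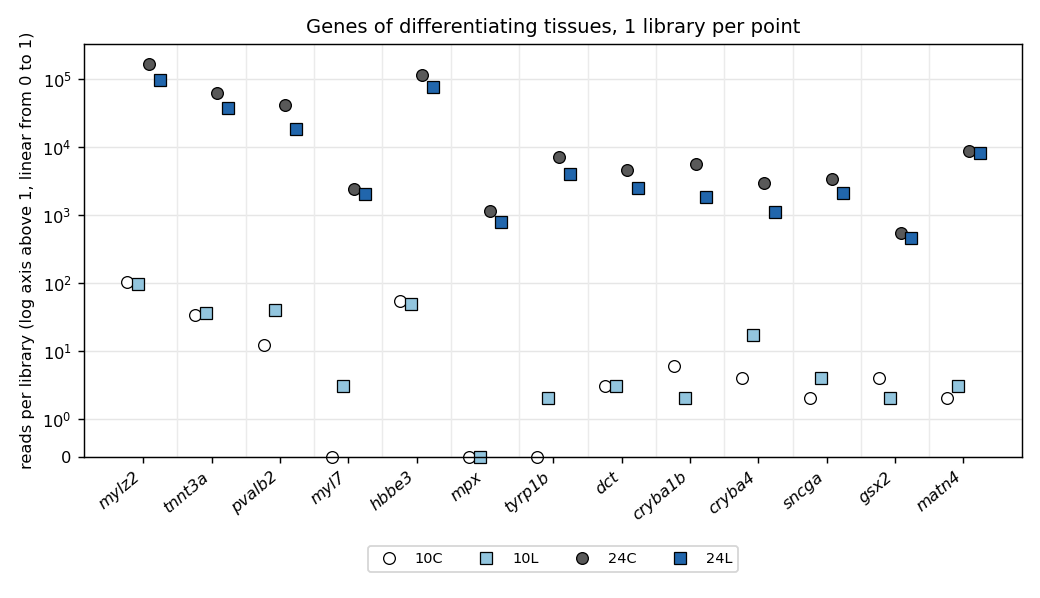
Reads in the 4 libraries (log axis above 1, linear from 0 to 1) for 13 genes of muscle, heart, blood, pigment, lens, neurons and matrix, with circles for 10C and 24C and squares for 10L and 24L. The smallest rise under the low dose is that of cryba4, from 17 to 1109 reads, and in these 13 genes 24L lies below 24C, as for hbbe3 with 75128 against 110847 reads. The 13 genes were picked for display and not by a rule, so this is no count over tissues. Other risers, not drawn, had more reads in 24L than in 24C, as col1a1b with 28419 against 21710 and tnnt1 with 17901 against 14694. For cmlc1 the 2 libraries were nearly level, at 1976 and 1959.

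Vessel genes rose, with 30 rises and 1 fall among 38 measured members and a median log2 FC of 2.92 against 3.4 in the controls. The scavenger receptor gene mrc1a had 0 and 1001 reads, at least 389-fold higher, and the water channel aqp1a, which red cells also carry, had 12 and 3218 (FC 313, 179 to 606). The endothelial lectin gene clec14a had 6 and 1352 reads (FC 263, 120.4 to 717), against 18 and 935 in the controls, and its ratio of 4.71 (1.92 to 11.5) was not wholly beyond 2-fold. The 2 lower ratios of this list included that of gpr182, an endothelial receptor, at 0.118 (0.0315 to 0.439), with 20 and 728 reads against 2 and 863 in the controls. The member that fell, sox17, is shared with the endoderm list.

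Of 44 measured red blood cell genes 33 rose and 2 fell, with a median log2 FC of 2.8 against 3.26 in the controls. The globin genes led this list, and since their sequences are close to each other the reads may be split unevenly between them. Besides hbbe3, hbbe2 had 2 and 2198 reads (FC 1281, 354 to 10590). The membrane skeleton gene add2 had 1 and 922 reads (FC 1075, 192 to 42500) and the anion exchanger slc4a1a had 99 and 12364 (FC 146, 119.5 to 179), against 181 and 15086 in the controls. The mitochondrial glycine carrier slc25a38a, needed for haem synthesis, had 135 and 363 reads (FC 3.13, 2.57 to 3.85). In the controls slc25a38a had 66 and 76 reads and was not called, and its ratio of 2.67 (1.82 to 3.91) was not wholly beyond 2-fold. The falls were those of bcl2l10, an apoptosis regulator, with 3181 and 1258 reads (FC 0.461, 0.432 to 0.492), and of znfl2a, with 6691 and 2111 (FC 0.368, 0.35 to 0.386).

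Myeloid genes, of the first macrophages and neutrophils, showed 19 rises and 3 falls among 31 measured members (median log2 FC 2.05, in the controls 2.11). The neutrophil peroxidase gene mpx had 0 and 781 reads, at least 304-fold higher, and 0 and 1149 in the controls. The lysozyme gene lyz had 9 and 1585 reads (FC 205, 108 to 449.8), and srgn, a proteoglycan of granules, had 1 and 360 (FC 420, 74.9 to 16620). The falls, of lcp1 with 7665 and 836 reads (FC 0.127, 0.118 to 0.137), of cyba with 1285 and 174 (FC 0.158, 0.134 to 0.185) and of slc7a7 with 1084 and 420 (FC 0.452, 0.403 to 0.506), were of genes with many reads at 10 hpf.

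The list of crystallins, the packed proteins that make the lens clear, had the highest median of the 36. Of 42 measured lens genes 37 rose and 3 fell, with a median log2 FC of 6.21 against 7.86 in the controls, and 31 of them rose by more than 8-fold. The beta crystallin gene cryba1b had 2 and 1821 reads (FC 1061, 293 to 8771), against 6 and 5528 in the controls. The gamma crystallins crygm2d8, with 4 and 1373 reads (FC 400.2, 156 to 1471), and crygm2d10, with 4 and 1303 (FC 380, 148 to 1396), belong to a family of near-identical copies, so their reads may be shared between copies. In the controls these genes ended at 5260 and 5419 reads from 0. The 6 lower ratios of folds in this list, with none higher, included that of cryba4, 0.112 (0.0395 to 0.315), with 17 and 1109 reads against 4 and 2922 in the controls. In all, 4 of the 42 members had a log2 FC above that of the controls, or 3 under library totals. The falls were of crygs2, with 71 and 21 reads (FC 0.345, 0.201 to 0.568), of cryabb and of the transcription factor maf (RefSeq mafa), with 1363 and 420 (FC 0.359, 0.321 to 0.401).

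In the eye field and retina list 29 of 40 measured genes rose and 7 fell, with a median log2 FC of 2.21 against 2.51. The homeobox gene six6b had 0 and 323 reads, at least 125.5-fold higher, and the retinal homeobox gene rx1 had 16 and 1126 (FC 82.04, 50.3 to 144). The earlier member of that family, rx3, which sets up the eye field, fell from 2730 to 167 reads (FC 0.0713, 0.0606 to 0.0834). Thus six6b and rx1 rose while rx3 and six7 fell, and the controls moved in the same directions, with 3285 and 111 reads for rx3 and 4264 and 14 for six7. The pineal enzyme gene aanat2 fell from 363 to 36 reads (FC 0.116, 0.0797 to 0.163).

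Most genes of both neuronal lists rose. Proneural bHLH factors and homeobox genes choose neuron types, and differentiated neurons then express synaptic, cytoskeletal and transmitter genes. Of 49 regulators 36 rose and 4 fell, with a median log2 FC of 2.66 against 4 in the controls, and of 76 genes of differentiated neurons 63 rose and 3 fell, with a median of 3.07 against 3.94. The subpallial regulator gsx2 had 2 and 460 reads (FC 268, 73.8 to 2221), tal2 of midbrain GABA neurons had 2 and 323 (FC 188, 51.7 to 1561), and atoh1a of the hindbrain rhombic lip and hair cells had 7 and 832 (FC 139, 67 to 346). Among effectors, sncga, a synuclein, had 4 and 2084 reads (FC 607, 237 to 2231), and gng3, a neuronal G protein subunit, had 5 and 1145 (FC 267, 114 to 824). In the controls sncga ended at 3305 reads and gng3 at 1691. In each list 5 ratios of folds were lower, while 1 effector and no regulator had a higher one, and under library totals 9 regulators and 8 effectors were lower. Of the 49 regulators 15 had a log2 FC above that of the controls, or 11 under library totals. The falls among regulators included gata3, with 11711 and 1609 reads (FC 0.16, 0.152 to 0.169), and gata2a, with 7529 and 587 (FC 0.0909, 0.0834 to 0.0989), genes that the ectoderm of the gastrula also expresses.

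Progenitor and glial genes moved less than those of the neuronal lists, with 19 rises, 5 falls and 20 of 44 members not called. Of all 44 members 43.2% rose and 11.4% fell, beside 30.3% and 18.8% of all genes measured. The median log2 FC was 0.52, in the controls 0.47, but 0.39 and 0.52 under library totals. The fatty acid binding protein gene of radial glia, fabp7a, had 44 and 3532 reads (FC 93.6, 69.6 to 129), against 47 and 12144 in the controls, and its ratio, 0.355 (0.235 to 0.535), was just short of the rule. The myelin gene plp1a had 116 and 3360 reads (FC 33.8, 28.1 to 41). Falls were seen for cx43 (RefSeq gja1b), a gap junction gene, with 104785 and 14747 reads (FC 0.164, 0.161 to 0.167), and for cdh2, N-cadherin, with 28331 and 8557 (FC 0.352, 0.344 to 0.361), both much as in the controls, where the ratios were 1.02 (0.996 to 1.05) and 1.04 (1.004 to 1.08).

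Pigment cell genes rose, with 24 rises and no fall among 29 measured members and a median log2 FC of 3.85 against 4.32 in the controls. Melanin synthesis led, with dct at 3 and 2425 reads (FC 942, 322 to 4573) against 3 and 4478 in the controls, next to tyrp1b. The pteridine enzyme gene gch2, used by yellow pigment cells and by melanophores, had 51 and 16340 reads (FC 374, 284 to 502), against 27 and 22839, with a ratio of 0.437 (0.275 to 0.694). No ratio of this list was called. Of 33 neural crest genes, the wider source of these cells, 13 rose and 8 fell, with a median of 0.03 against 0.2. The medians do not show the balance of members, since 22 of the 33 had a log2 FC above that of the controls. This count was also 22 under library totals, beside 8436 and 6330 of all 17136 genes measured. In the crest list 2 ratios were higher and none lower, and none was called under library totals. The rises included genes of later derivatives, such as twist3 with 12 and 485 reads (FC 47.1, 26.7 to 91.8) and barx1 of the jaw with 14 and 212 (FC 17.7, 10.3 to 32.8). The falls included that of snai1a, with 7294 and 1559 reads (FC 0.249, 0.236 to 0.263), which in whole embryos cannot be assigned to the crest.

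Hox genes, which give cells their place along the body axis, moved together in some paralog groups and not in others. Group 1 held 2 rises and 2 falls, and groups 3 and 10 held 1 of each. All 4 genes of group 11 and all 3 of group 12 rose, with medians of 2.55 and 6.13 on the log2 scale, and 5 of 6 genes of group 13 did, with a median of 6.08. The corresponding control medians were 2.69, 6.66 and 5.62. In these groups hoxc13a had 4 and 787 reads (FC 229, 89.2 to 844), against 3 and 653 in the controls, and hoxc12b had 1 and 183 (FC 213, 37.8 to 8472). The opposite was seen in group 9, where 4 of 5 genes fell, as for hoxa9a with 2695 and 537 reads (FC 0.232, 0.211 to 0.255). The median of this group was -1.09, against -0.63 in the controls. Of its falls, those of hoxb9a and hoxd9a (FC 0.469 for each) were close to 2-fold, and neither gene was called in the controls. The single gene of group 7, hoxb7a, fell from 2331 to 507 reads (FC 0.254, 0.23 to 0.279). Of the anterior genes, hoxc1a rose from 83 to 576 reads (FC 8.09, 6.42 to 10.3), while hoxb1b, active in the gastrula hindbrain, fell from 7815 to 1830 (FC 0.273, 0.259 to 0.287). The median log2 FC was 0.67 for groups 1 to 4, 0.51 for groups 5 to 8 and 2.01 for groups 9 to 13. The control medians were 1.24, 1.04 and 2.23. No ratio of folds was called for any of the 47 Hox genes, but under library totals 1 in groups 5 to 8 was lower. For hoxb1b the ratio was 2.15 (1.99 to 2.33), just short of the rule, with 8952 and 1114 reads in the controls. The weak rise of hoxa5a, with 75 and 135 reads (FC 2.1, 1.57 to 2.82), was lost under library totals.

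**Figure D4:**
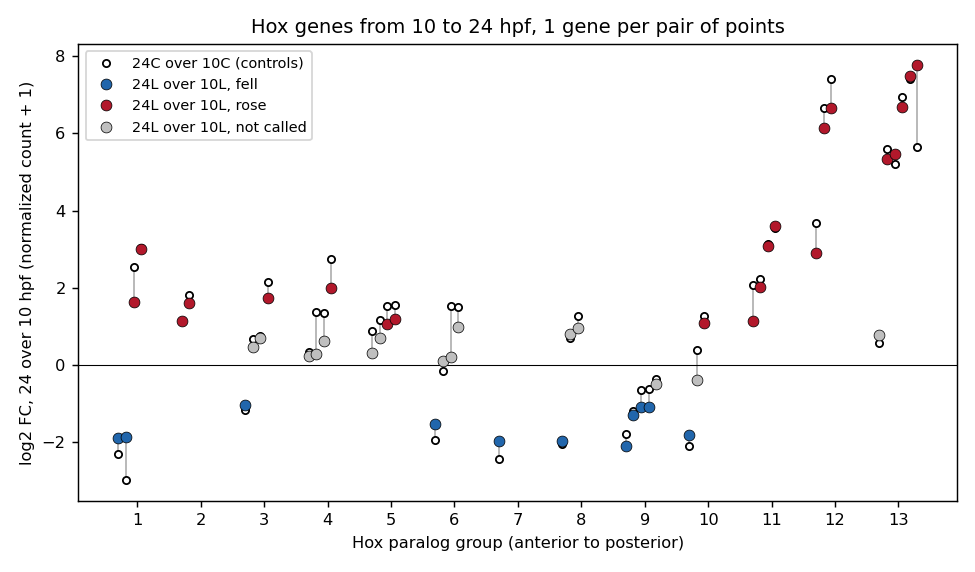
Log2 FC from 10 to 24 hpf of each Hox gene by paralog group from anterior (left) to posterior, with filled points for 24L over 10L (coloured by call) and open points for 24C over 10C. Groups 11 to 13 lie above 0, at medians of 2.55, 6.13 and 6.08, and group 9 below it, at -1.09.

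The matrix list, of notochord, floor plate and cartilage, held 34 rises and 10 falls among 54 measured genes (median log2 FC 3.02, in the controls 3.37). The shares were 63.0% and 18.5%, beside 30.3% and 18.8% of all genes measured, so falls were about as frequent as over all genes. Besides matn4, the rises included fibrillar collagen genes, col1a1b with 67 and 28419 reads (FC 494.5, 389 to 638) and col1a2 with 84 and 29980 (FC 416, 336 to 522). Both ended above the controls in reads, at 21710 and 23585. The falls included matrix genes of the gastrula, fn1 (fibronectin, RefSeq fn1a), with 53751 and 4246 reads (FC 0.0921, 0.0892 to 0.095), and lama1 (laminin alpha), with 51060 and 7623 (FC 0.174, 0.17 to 0.178). The ratio of folds was 1.19 (1.13 to 1.25) for fn1 and 1.63 (1.56 to 1.7) for lama1. In this list 4 ratios were lower and 1 higher, with 7 lower and none higher under library totals.

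Hatching gland genes, whose proteases later dissolve the egg envelope, rose in 8 of 13 measured cases and fell in 1, with a median log2 FC of 1.2 against 1.31. The protease gene he1b had 3063 and 111373 reads (FC 42.4, 40.9 to 43.9), against 1941 and 115028 in the controls. The related he2 (RefSeq he1.3), a close copy with which reads may be shared, had 20 and 4808 reads (FC 280.3, 181 to 459), against 27 and 794, with a ratio of 9.28 (5.21 to 16.5). Conversely agr2, a disulphide isomerase of secretory cells, had 42 and 2378 reads (FC 66.0, 48.7 to 91.8), against 18 and 5900, with a ratio of 0.201 (0.116 to 0.347). These 2 members of the list thus differed from the controls in opposite directions. The gland's transcription factor prdm1a, also used in slow muscle and neural crest, fell from 6701 to 1777 reads (FC 0.309, 0.293 to 0.326).

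Epidermal genes changed in both directions, with 58.1% that rose and 11.6% that fell, beside 30.3% and 18.8% of all genes measured. Of 43 measured genes of epidermis, keratins and ionocytes 25 rose and 5 fell, with a median log2 FC of 1.76 against 1.41, and 11 ratios of folds were higher and 2 lower, with 7 and 2 under library totals. The higher ratios included those of the keratin entries krt4, krt5, krt8, krt18, cyt1 and cyt1l, some of them close copies, and of tp63, the regulator of epidermal fate. The keratin gene krt18 (RefSeq krt18a.1) fell from 256054 to 78095 reads (FC 0.356, 0.353 to 0.358), and in the controls from 301860 to 43634, with a ratio of 2.41 (2.38 to 2.44). The ionocyte and otic placode regulator foxi1 fell from 1613 to 505 reads (FC 0.365, 0.33 to 0.404), and in the controls from 2516 to 361, with a ratio of 2.49 (2.15 to 2.89). In both genes 10L lay below 10C and 24L above 24C in reads. The rises were led by and2 (actinodin) of the fin fold, with 6 and 1556 reads (FC 302, 139 to 825), the sodium pump subunit atp1b1b, with 19 and 4376 (FC 268.5, 172 to 446), and the anchoring collagen col7a1 with 31 and 5356 (FC 201, 142 to 297). For col7a1 the controls had 6 and 1746 reads, about the same fold from lower levels at both ages, with a ratio of 0.724 (0.311 to 1.69).

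Organ lists with both early and late members moved in both directions, as did all genes measured, of which 30.3% rose and 18.8% fell. The shares were 39.3% and 32.1% for ear and lateral line, and 37.5% and 18.8% for pronephros. Falls were thus no more frequent among pronephros genes than over all genes. Of 28 genes of ear and lateral line 11 rose and 9 fell, with otomp, an otolith protein gene, at 4 and 573 reads (FC 167, 64.9 to 615), and the early otolith gene stm (starmaker) falling from 28969 to 3712 (FC 0.149, 0.144 to 0.155). Of 32 pronephros genes 12 rose and 6 fell (median log2 FC 0.72, in the controls 1.11). The sodium chloride cotransporter slc12a3 of the distal tubule had 4 and 325 reads (FC 94.7, 36.6 to 350). The early kidney regulators pax8, with 2428 and 323 reads (FC 0.155, 0.138 to 0.174), and hnf1ba, with 5038 and 640 (FC 0.148, 0.136 to 0.161), fell. The transcription factor osr2 had 2 and 341 reads (FC 199, 54.6 to 1648), against 11 and 123, with a ratio of 14.54 (3.65 to 58). This was the 1 higher ratio of the pronephros list, and 2 were lower. Of its 32 members 14 had a log2 FC above that of the controls, or 10 under library totals.

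Of 36 genes of gut, liver and pancreas 17 rose and 7 fell, with a median log2 FC of 0.67 against 0.85 in the controls. The shares were 47.2% and 19.4%, beside 30.3% and 18.8% of all genes measured, so falls were about as frequent as over all genes. The hormone genes sst2, a somatostatin, with 3 and 359 reads (FC 139.5, 47.4 to 680), and gcgb, a glucagon, with 3 and 175 (FC 68.0, 22.9 to 333), rose, and the pancreas regulator ptf1a had 0 and 190 reads, at least 73.8-fold higher. The insulin gene insb, which is read in early embryos, fell from 489 to 55 reads (FC 0.131, 0.0974 to 0.173), against 799 and 24 in the controls, with a ratio of 4.23 (2.6 to 6.9). Of these 4 genes insb alone had more than 5 reads at 10 hpf.

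The yolk syncytial layer feeds the embryo and makes its first plasma proteins. Of 40 measured genes of this list 23 rose and 6 fell, with a median log2 FC of 1.61 against 2.04, and 9 ratios of folds were lower and 1 higher, with 11 and 1 under library totals. The retinol carrier gene rbp4 had 488 and 28635 reads (FC 68.4, 62.6 to 75), against 295 and 55570 in the controls, with a ratio of 0.356 (0.308 to 0.412). The complement gene c9 had 20 and 1982 reads (FC 115.5, 74.6 to 190), against 14 and 4381, and the copper carrier cp (ceruloplasmin) had 4 and 327 (FC 95.3, 36.9 to 352), against 6 and 869. The exception was uox, urate oxidase, which fell from 7359 to 885 reads (FC 0.14, 0.131 to 0.15), and in the controls from 8130 to 87, with a ratio of 12.8 (10.24 to 16). The lipid transfer gene mtp (RefSeq mttp) fell from 13491 to 1823 reads (FC 0.158, 0.15 to 0.165), and its ratio, 0.938 (0.873 to 1.007), includes 1.

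Among the enzymes and receptors of thyroid, steroid and retinoid metabolism 18 of 45 measured genes rose and 13 fell, with a median log2 FC of 0.53 against 1.18 in the controls. The shares were 40% and 28.9%, beside 30.3% and 18.8% of all genes measured. Despite the gap in the medians, 23 of the 45 members had a log2 FC above that of the controls, or 17 under library totals. The rises included those of the retinol esterifying enzyme gene lrata, with 6 and 1588 reads (FC 308.5, 141 to 842), and of the retinoic acid carrier crabp1b, with 7 and 1188 (FC 198, 95.7 to 493). The retinol dehydrogenase rdh1 had 67 and 328 reads (FC 5.71, 4.38 to 7.54), against 3 and 193, with a ratio of 0.101 (0.0339 to 0.299), and the cellular carrier rbp2b had 60 and 336 (FC 6.53, 4.95 to 8.74), against 28 and 1545, with a ratio of 0.117 (0.074 to 0.186). Both genes stood higher in 10L than in 10C. The steroid side-chain cleavage enzyme cyp11a1 (RefSeq cyp11a1.1) fell from 7040 to 742 reads (FC 0.123, 0.114 to 0.133), and in the controls from 5882 to 81, with a ratio of 8.7 (6.91 to 10.97). By contrast hsd3b1, the next enzyme of the pathway, had a ratio of 1.12 (0.954 to 1.32). In this list 5 ratios were lower and 1 higher, with 7 and 1 under library totals.

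Most glycolysis genes rose. Of 40 glycolysis genes 29 rose and 3 fell, with a median log2 FC of 2.92 against 2.73 in the controls, or 2.79 in both under library totals. The muscle mutase gene pgam2 had 10 and 1677 reads (FC 195.5, 106 to 408) and the neuronal enolase gene eno2 had 2 and 337 (FC 196, 54 to 1629). The glucose transporter slc2a1a had 6 and 914 reads (FC 178, 81.3 to 485). The lactate dehydrogenase gene ldha rose from 432 to 8033 reads (FC 21.7, 19.7 to 23.9), against 420 and 5488 in the controls, with a ratio of 1.63 (1.42 to 1.87), and the glucose phosphate isomerase gene gpia from 959 to 7168 (FC 8.71, 8.14 to 9.33), against 902 and 2102, with a ratio of 3.67 (3.31 to 4.07). The paralog gpib also rose, with 11 and 272 reads (FC 28.8, 15.9 to 58.4) against 1 and 502 in the controls. Its ratio was lower, at 0.0809 (0.0147 to 0.446), and rests on 1 read in 10C. The gluconeogenic gene pck2 fell from 77759 to 12838 reads (FC 0.193, 0.189 to 0.196), and in the controls from 59496 to 5120, with a ratio of 2.19 (2.12 to 2.27). In all, 5 ratios of this list were higher and 2 lower.

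Of 47 genes of hypoxia and xenobiotic response 24 rose, 3 fell and 20 were not called, with a median log2 FC of 1.17 against 0.76. The cytochrome gene cyp1a, the usual readout of the aryl hydrocarbon receptor, had 110 and 1572 reads (FC 16.7, 13.7 to 20.4), against 46 and 740 in the controls, so that its fold differed little, with a ratio of 1.02 (0.718 to 1.46). The growth factor binding gene igfbp1a had 57 and 951 reads (FC 19.4, 14.9 to 25.9), against 38 and 332, and the prolyl hydroxylase egln3, which is itself induced by low oxygen, had 367 and 2412 (FC 7.66, 6.86 to 8.57), against 80 and 356. For both genes 24L lay well above 24C, but the intervals of their ratios, 2.19 (1.43 to 3.36) and 1.7 (1.3 to 2.21), were not wholly beyond 2-fold. The carbonic anhydrase gene ca9 fell from 2325 to 32 reads (FC 0.016, 0.011 to 0.0227), against 2799 and 91. The only called ratio of this list was that of the transporter gene abcb5, which had 5519 and 2424 reads and was not called between the ages (FC 0.512, 0.488 to 0.537), against 6475 and 1210, with a ratio of 2.69 (2.49 to 2.9).

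Mitochondrial fuel genes rose in 41.3% of measured cases and fell in 2.17%, beside 30.3% and 18.8% of all genes measured. Of 46 measured genes of this list 19 rose, 1 fell and 26 were not called (median log2 FC 0.61, in the controls 0.67). Over all 17136 genes measured 8738 were not called. Of the 46 members 11 had a log2 FC above that of the controls, or 8 under library totals, beside 8436 and 6330 of all genes measured. The ADP/ATP carrier of muscle, slc25a4, had 11 and 1294 reads (FC 137, 76.4 to 275), against 12 and 4716, and the uncoupling protein gene ucp3 had 4 and 462 (FC 135, 52.2 to 496). Succinate dehydrogenase subunits stayed within 2-fold for sdha, with 4006 and 4001 reads (FC 1.16, 1.11 to 1.22), and sdhb, with 3579 and 4022 (FC 1.31, 1.25 to 1.37), while sdhc rose from 2143 to 4705 (FC 2.56, 2.43 to 2.69). The fall was that of sdhda, a further subunit with few reads, 28 and 8 (FC 0.333, 0.131 to 0.75), which is named because it was the only fall.

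Cell cycle genes, which dividing cells of either age express, were mostly not called, as were 8738 of all 17136 genes measured. They rose in 5.8% and fell in 27.5% of measured cases, beside 30.3% and 18.8% of all genes measured. Of 69 measured genes 4 rose, 19 fell and 46 were not called, with a median log2 FC of -0.59 against -0.55 in the controls. Falls were led by genes of the start of DNA replication, ccne (cyclin E, RefSeq ccne1) with 2847 and 445 reads (FC 0.182, 0.165 to 0.201) and the licensing factor cdt1 with 5692 and 1320 (FC 0.27, 0.254 to 0.287). The rises included ccnd2a, a D-type cyclin, with 463 and 1186 reads (FC 2.99, 2.68 to 3.33), and cdkn3, a phosphatase acting on cyclin-dependent kinases, with 128 and 484 (FC 4.41, 3.62 to 5.4). No ratio of this list was called.

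Of 32 circadian clock and pineal genes 15 rose and 3 fell, with a median log2 FC of 0.74 against 0.97. The hour of day at collection is not given, so for genes of this list age and time of day cannot be told apart. The period gene per1b, a repressor of the clock, had 6 and 2533 reads (FC 492, 226 to 1342), against 10 and 1440 in the controls, with a ratio of 3.25 (1.22 to 8.66). The related per3 had 57 and 1162 reads (FC 23.8, 18.2 to 31.6). The cryptochrome entry cry2b (RefSeq cry3b) fell from 790 to 336 reads (FC 0.496, 0.435 to 0.564), whereas it had 534 and 628 reads in the controls, with a ratio of 0.414 (0.349 to 0.492).

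Across the 17165 genes that averaged at least 10 reads over the 4 libraries, log2 FC of the low-dose embryos followed that of the controls, with Pearson's r at 0.932 and Spearman's rho at 0.913. Genes are not independent replicates, and the points share the libraries' scaling, so this is a description. The least-squares slope of the low-dose on the control values was 0.834. Error in the control values lowers such a slope, so it does not by itself measure a smaller change. Among the 5019 genes that rose in both, 61.7% rose less under the low dose, or 69.8% with library totals. Among the 2622 that fell in both, 66.2% fell less under the low dose, but 48.4% with library totals, so for the falls as a whole the balance rests on the scaling. The control fold is the divisor of the ratio, so the following shares are partly set by how the ratio is made. Of the 354 genes with a higher ratio 71.5% fell in the controls, and of the 287 with a lower ratio 85.7% rose in the controls.

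**Figure D5:**
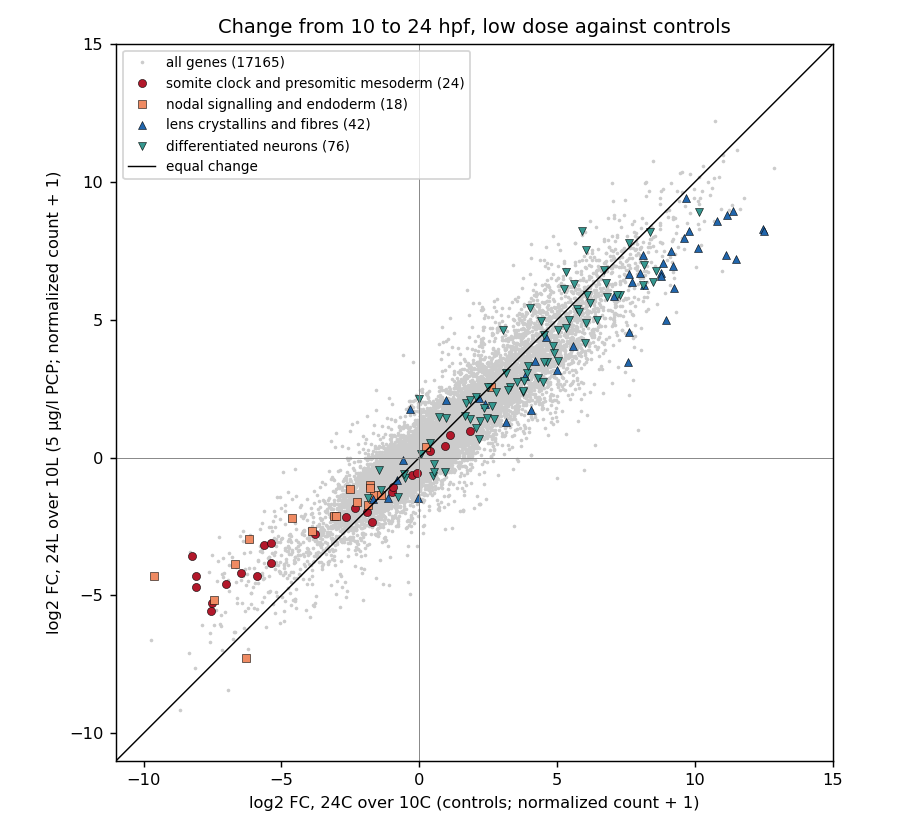
Log2 FC of 24L over 10L against log2 FC of 24C over 10C for 17165 genes, with 4 lists coloured and a line of equal change. Above the line lie 14 of the 24 presomitic, 16 of the 18 nodal and endoderm, 4 of the 42 lens and 22 of the 76 neuron genes. Under library totals, which are not drawn, these counts were 14, 13, 3 and 17. Of all 17136 genes measured in 10L and 24L, 8436 lay above equal change, or 6330 under library totals.

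Among called ratios of genes with at least 200 reads in the highest library, 10 were taken from each end. Ratios that were not called could lie farther from 1 with wide intervals, as for crygm2d10 at 0.0306 (0.00164 to 0.568). On the higher side, besides her1, msgn1, vent, lft1, sox32 and mespb, these were osr2, uox, mep1b and hesx1. The pituitary and forebrain homeobox gene hesx1 had 159 and 16 reads (FC 0.117, 0.0655 to 0.197), against 252 and 2 in the controls, with a ratio of 11.9 (3.11 to 45.9). The meprin gene mep1b had 140 and 84 reads and was not called (FC 0.7, 0.527 to 0.923), whereas it fell in the controls from 308 to 9, with a ratio of 22.3 (11.1 to 45). On the lower side were, besides mybpc2b, gpib, rdh1, cryba4, rbp2b and gpr182, the matricellular gene sparcl1, the calcium channel subunit cacnb4b, the vesicle coat gene ap3b2 and the clotting factor gene f9b. The reads of cacnb4b were 28 and 509 (FC 21.2, 14.5 to 32.2), against 3 and 824 in the controls, those of ap3b2 were 63 and 314 (FC 5.81, 4.42 to 7.74), against 5 and 326, and those of f9b were 42 and 116 (FC 3.22, 2.24 to 4.7), against 9 and 292. Each of these 3 genes had more reads in 10L than in 10C, and in ap3b2 the libraries at 24 hpf were nearly level.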

How the data were processed

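RNA of whole embryos was sequenced by the authors, 1 library per group. The labels name zebrafish build Zv 9 and human build 19, while the study's methods name another zebrafish build, so no coordinates are given. The deposited values are a normalized signal, read counts multiplied by 1 factor per library. The reads were recovered from its steps, all whole within 0.001 read. The factors equal median-of-ratios size factors of these reads and differ from edgeR's TMM factors (0.885 and 0.918 in 10L), although the methods state TMM. The 11 merged entries, with 13.9% of reads in 24L and 14.8% in 10L, were left out.

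Reads of 10L and 24L were compared gene by gene with the two-sided exact binomial test (scipy 1.17.1, pandas 2.3.3, numpy 2.4.6, Python 3.11.15). Of 1420 list symbols 1107 matched by name, 124 through RefSeq names and 189 did not. Named genes were the 15 highest and 15 lowest called FC with at least 200 reads (0 reads ordered as 3), the 3 highest and 3 lowest called in each list with at least 50 reads, the 10 called ratios farthest from 1 in each direction with at least 200 reads, and list members named by the study. Values of a part of these genes are printed, and 1 gene was left out of the set and is not reported here. Lists and members were chosen with earlier results of these data known. Alternatives were library totals, other thresholds, adjusted p and edgeR 4.0.16 (R 4.3.3) with assumed variation, and TMM factors, which were added after seeing the data. The scripts were tested on simulated data, and plots used matplotlib 3.10.9.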

Additional observations from a re-analysis of the deposited data

Results flagged for a closer look

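For 41 of the 235 named genes the ratio of the fold under the low dose to that of the controls was called. Its whole interval lay beyond 2-fold. Among them 10 were chosen for a higher and 10 for a lower called ratio, so the count is partly set by the choice. Over all 21217 genes 354 ratios were higher (1.67%) and 287 lower (1.35%). On the log2 scale the higher ratios were 4.48 for mep1b, 3.94 for her1, 3.86 for osr2, 3.68 for uox, 3.58 for hesx1, 3.45 for vent, 3.42 for msgn1, 3.33 for mos, 3.27 for lft1, 3.21 for he2, 3.12 for cyp11a1, 2.43 for tbx24 and 2.35 for cdx4. Smaller ones on the same side were 2.33 for foxh1, 2.28 for tbx16, 2.08 for insb, 2.04 for her7, 1.87 for gpia, 1.80 for wnt8-2, 1.75 for ved, 1.63 for pfkfb1, 1.43 for abcb5, 1.32 for foxi1, 1.27 for krt18 and 1.13 for pck2. The lower ratios were -4.35 for mybpc2b, -3.63 for gpib, -3.53 for cacnb4b, -3.39 for ap3b2, -3.31 for rdh1, -3.30 for f9b, -3.16 for cryba4, -3.09 for rbp2b, -3.09 for gpr182, -2.66 for pvalb2, -2.32 for agr2, -1.49 for rbp4 and -1.27 for cry2b. Those of 6.18 for sox32, 5.52 for mespb and -5.77 for sparcl1 rest on a control library with 0 reads and on the 0.5 read added, and are no bound. Each value compares 4 single libraries.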

How the results depend on the processing

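No paired analysis was possible because each group has 1 library, and for the same reason no replicate could be left out. The planned median-of-ratios scaling is the deposited one and was not run. Library totals gave 5501 rises and 4037 falls, TMM factors 5840 and 3590. At a 4-fold threshold 1003 genes fell, and with an assumed coefficient of variation of 0.4 in edgeR 1140 fell, while 5113 of the 9356 calls were kept. Higher ratios of folds numbered 223 under library totals, 35 beyond 4-fold, 77 with a variation of 0.2 and 17 with 0.4. Lower ones numbered 453, 29, 78 and 21. Under library totals the log2 FC of klf4a (1.00), hoxa5a (0.94) and slc25a25a (0.95) lost their calls and abcb5 (-1.09) gained one. The other 466 of 470 values of named genes kept direction and call, and 272 of 288 list values did not move. With 1 library a group, counting error is the only error measured, and genes with few reads at 10 hpf have the widest intervals.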
